A study of Mus musculus with 12 samples.

Results

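The genes described here are the 10 mouse genes of major histocompatibility complex (MHC) class II antigen presentation: H2-Aa, H2-Ab1, H2-Eb1, H2-DMa, H2-DMb1, H2-DMb2, H2-Oa, H2-Ob, Cd74 and Ciita. They were taken by symbol from the raw count matrix, which holds 18514 genes, and all 10 also passed the filter on low counts that left 15484 genes for testing. RNA was sequenced from whole colorectal tissue of male C57BL/6 mice, bought at 4 weeks of age, in 12 libraries, 3 in each of 4 groups. Ctrl mice received ordinary drinking water and did not swim. Ctrl_Swim mice received ordinary water and swam for up to 90 min a day. Model mice received a single injection of azoxymethane (AOM, 10 mg/kg), a colon carcinogen, and 3 cycles of drinking water with 2% dextran sodium sulfate (DSS), which damages the colon epithelium. Model_Swim mice, titled Swim in the labels, received the same AOM and DSS and swam from 2 months before the AOM injection to the end. Mice that did not swim were placed in shallow water instead. The AOM/DSS regimen gives colitis followed by tumours in the colorectum, and no group separates the carcinogen from the colitis. The labels do not say which part of the colorectum each library came from, or whether it held tumour.

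MHC class II molecules are pairs of an alpha and a beta chain that hold peptides from endosomes at the cell surface, where CD4 T cells read them. The pairs assemble around the invariant chain, product of Cd74, which fills the groove and sends the complex to endosomes. There H2-DM, a related alpha and beta pair, exchanges the remnant of the invariant chain for antigen peptides, and H2-DO, made by H2-Oa and H2-Ob, restrains H2-DM. Ciita encodes the coactivator without which most class II genes are hardly transcribed. B cells, dendritic cells and macrophages express class II all the time, other cells of the gut, epithelium included, can do so after interferon-gamma, and H2-O is best known from B cells. C57BL/6 mice carry the b haplotype, which has no working H2-Ea gene, so H2-Eb1 transcript is made in them without its usual partner chain, and H2-Ea had no row in the matrix.

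The 8 H2 genes lay within 224 kb of chromosome 17, from 34092379 to 34316674 (GRCm38.p6, the build of the count files), and Ciita and Cd74 lay on other chromosomes. Class II promoters share an X box and, closer to the start, a Y box, where the RFX, CREB and NF-Y factors that hold CIITA bind. RefSeq promoter windows, 250 bases before to 50 after a start on GRCm38.p6, were at hand for 7 of the 10 genes, and the 250 bases before the start were searched on both strands. The letters searched, chosen after these windows had been seen, were TGATTGG for the Y box (CCAATCA on the other strand) and AACNNATGA for the core of the X box (TCATNNGTT on the other strand), and the 2 do not overlap in any window shown. The stretches below are printed because they show the Y box letters, the X box core or both. They also show how the X box core differs between the near copies H2-DMb1 and H2-DMb2. The H2-DMb1 stretch ends before its Y box. A window without the X box letters searched may still hold an X box of other letters. Exons and genes are those of GENCODE M21. The stretches read 5′ to 3′ on the strand of the gene, with matches in capitals.
H2-Aa, chr17:34287859-34287918, minus strand, over no annotated gene: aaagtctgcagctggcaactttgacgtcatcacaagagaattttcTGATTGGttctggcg
H2-Eb1, chr17:34305761-34305820, plus strand, over no exon but inside the antisense gene Gm20513: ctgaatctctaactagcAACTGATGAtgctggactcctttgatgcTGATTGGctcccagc
H2-Ob, chr17:34238801-34238860, plus strand, over no annotated gene: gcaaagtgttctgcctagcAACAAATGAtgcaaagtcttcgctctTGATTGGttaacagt
H2-DMb2, chr17:34145112-34145171, plus strand, inside the annotated gene but over no exon: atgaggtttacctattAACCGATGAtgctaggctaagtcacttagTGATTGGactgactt
H2-DMb1, chr17:34153094-34153123, plus strand, over an annotated exon of the gene, X box core only: ctagtAACTGATGAtgctaggctgattcac
H2-Oa, chr17:34092311-34092340, plus strand, touching an annotated exon of the gene: cccattatctcagagaactgctcTGATTGG

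The Y box letters stood once in the windows of H2-Aa, H2-Eb1, H2-DMb1, H2-DMb2, H2-Oa and H2-Ob, all on the strand of the gene and from 45 (H2-Oa) to 92 bases (H2-DMb2) before the start. The X box core stood in the windows of H2-Eb1, H2-DMb1, H2-DMb2 and H2-Ob, with 17 to 20 bases between it and the Y box. Of all 32851 RefSeq windows, 7.23% held the Y box letters and 2.49% the X box core, and of the 87 windows with both, 4 were those of these genes. Because the letters were chosen after the windows of these genes had been seen, the shares are a description and no test. The 2 windows of H2-DMa held neither. They begin at 34122582 and 34125268, inside the gene, which begins at 34119693, so the bases before its first base were not searched.

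Totals per library were 17256953 to 19451055 reads. Levels are given as counts per 1000000 reads (CPM) scaled by edgeR's trimmed mean of M values, on which 3 reads correspond to 0.153 to 0.172 CPM. The counts of the 10 genes ran from 25 (H2-Oa in Ctrl 2) to 27086 (Cd74 in Model 2). Model 1 and Model 3 held pancreatic transcripts, with 12 acinar marker genes summing to 44055 and 21430 CPM against 11.1 to 96.6 CPM in the other 10 libraries. In each comparison a gene was called at a Benjamini-Hochberg adjusted p under 0.05 in edgeR's quasi-likelihood test over all genes tested.

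Set side by side per kilobase of the longest annotated coding transcript, the 10 genes spanned more than 2 orders of magnitude in untreated colon. In Ctrl, Cd74 had a level of 317 ± 34.3 CPM per kilobase (SD, n = 3), followed by H2-Aa at 141 ± 11.4, H2-Ab1 at 123 ± 6.85 and H2-Eb1 at 79.1 ± 3.82, and these 4 did not overlap with each other between libraries. The peptide exchange genes lay far below, H2-DMb1 at 11.03 ± 1.64 and H2-DMa at 8.24 ± 0.778 CPM per kilobase, again without overlap. H2-DMb2 (3.88 ± 1.35), H2-Ob (2.70 ± 0.939), Ciita (2.54 ± 0.599) and H2-Oa (2.02 ± 0.678) came last, and each overlapped with its neighbour in this order. The places of H2-DMa and H2-DMb2 depended on the length used. On the deposited FPKM values, which divide by other lengths, H2-DMa (2.29 ± 0.189) lay below H2-DMb2 (6.88 ± 2.31) in Ctrl. In Model the order of the first 5 was unchanged in CPM per kilobase, from Cd74 at 652 ± 344 to H2-DMb1 at 21.6 ± 15.8, with a larger SD than in Ctrl for each of them.

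The comparison of Model with Ctrl asks what AOM/DSS did in mice that did not swim. In it, 9 of the 10 class II genes were higher in Model, all but H2-DMb1, and none was lower. Of all genes tested 16.5% were called higher. With the 2-fold cutoff that the study set, 7 of the 10 remained, against 6.21% of all genes. The median log2 fold change of the 10 genes was 1.04, beside 0.01 over all genes tested. Libraries hold whole tissue, so more cells that express class II and more transcript per cell cannot be told apart. The labels name no separate cultures or litters, and the p-values measure the spread between single mice. The plot of levels by library shows all 10 genes.

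**Figure D1:**
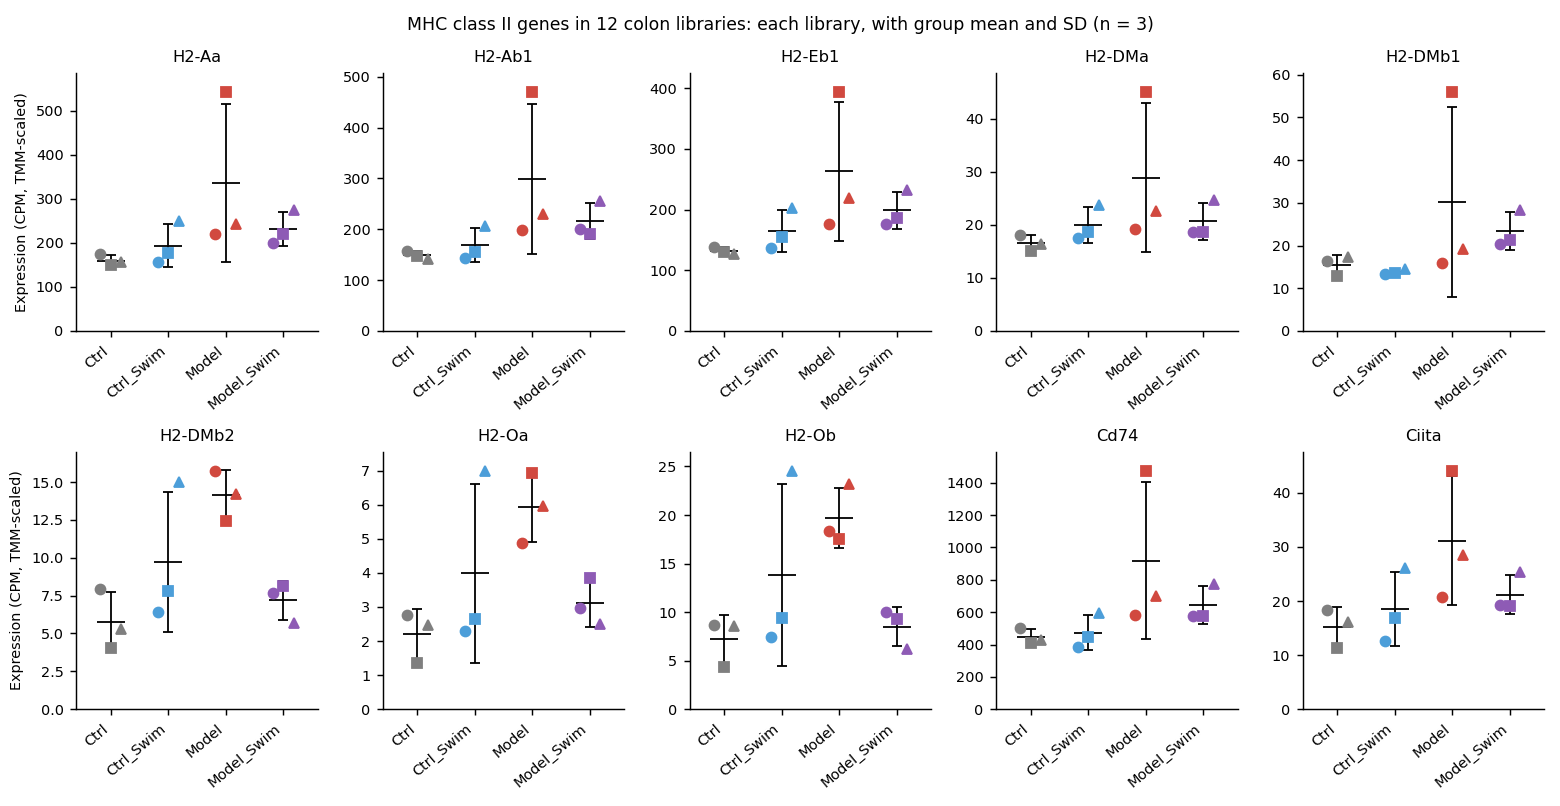
Expression (CPM, linear axis from 0) of the 10 class II genes in each of the 12 libraries, with the mean (bar) and SD (n = 3) of each group; circle, square and triangle are the libraries of a group in order of replicate number. Model 2 (red square) stands far above every other library in H2-Aa, H2-Ab1, H2-Eb1, H2-DMa, H2-DMb1, Cd74 and Ciita, whereas all 3 Model libraries and Ctrl_Swim 4 (blue triangle) are high in H2-DMb2, H2-Oa and H2-Ob.

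Of the genes for the peptide-presenting chains, H2-Aa, the alpha chain of H2-A, measured 174, 149 and 156 CPM in Ctrl 1 to 3 and 220, 542 and 244 CPM in Model 1 to 3. Its log2 fold change was 1.07 (SE 0.30, edgeR adjusted p = 0.0211). H2-Ab1, the beta chain of H2-A, measured 158, 148 and 141 CPM in Ctrl and 199, 469 and 230 CPM in Model. All Model libraries lay above all Ctrl libraries for both chains of H2-A, and Model 2 was more than 1.5 times the next library. The log2 fold change of H2-Ab1 was 1.01 (SE 0.28, edgeR adjusted p = 0.0182). H2-Eb1, the beta chain of H2-E, went from 139, 131 and 126 CPM in Ctrl to 177, 393 and 219 CPM in Model, a log2 fold change of 0.99 (SE 0.25, edgeR adjusted p = 0.0134). For each of these 3 genes Model 1 and Model 3 stood close together and Model 2 apart.

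Cd74, the invariant chain, was the most abundant of the 10 genes in every group. It measured 502, 412 and 425 CPM in Ctrl and 584, 1475 and 699 CPM in Model, with no overlap and a log2 fold change of 1.04 (SE 0.30, edgeR adjusted p = 0.0228). Ciita, the class II coactivator, measured 18.3, 11.3 and 16.1 CPM in Ctrl and 20.8, 44.1 and 28.6 CPM in Model. Its groups did not overlap either, and its log2 fold change of 1.03 (SE 0.31, edgeR adjusted p = 0.0270) was close to that of Cd74. Exons of Ciita overlap with those of Dexi on the opposite strand; the kit keeps strand, but whether the counting used it is not given in the sources used here.

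Of the 3 genes of the peptide exchanger H2-DM, 2 were called higher. H2-DMa, its alpha chain, measured 18.1, 15.0 and 16.4 CPM in Ctrl and 19.2, 45.03 and 22.6 CPM in Model, the smallest log2 fold change of the 10 at 0.81 (SE 0.27, edgeR adjusted p = 0.0425). H2-DMb1, one of 2 genes for the beta chain, measured 16.4, 12.9 and 17.2 CPM in Ctrl and 15.8, 55.9 and 19.2 CPM in Model. Its groups overlapped, since Model 1 lay below Ctrl 1 and Ctrl 3, and its log2 fold change of 0.97 (SE 0.38) had an edgeR adjusted p of 0.0728. H2-DMb2, the other beta chain gene, measured 7.94, 4.03 and 5.27 CPM in Ctrl and 15.8, 12.4 and 14.2 CPM in Model. Here the 3 Model libraries lay close together, and the log2 fold change was 1.297 (SE 0.32, edgeR adjusted p = 0.0119). Exons of H2-DMa overlap with those of Brd2 on the opposite strand.

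H2-Oa and H2-Ob, the chains of H2-DO that restrain H2-DM, had the largest log2 fold changes of the 10 genes. H2-Oa measured 2.76, 1.36 and 2.47 CPM in Ctrl and 4.88, 6.92 and 5.97 CPM in Model, a log2 fold change of 1.43 (SE 0.42, edgeR adjusted p = 0.0247). H2-Ob measured 8.72, 4.30 and 8.57 CPM in Ctrl and 18.3, 17.5 and 23.2 CPM in Model, a log2 fold change of 1.45 (SE 0.42, edgeR adjusted p = 0.0227). Ctrl 2 was the lowest of the 12 libraries for both, and Model 2 was not raised above the other Model libraries for H2-Ob. Exons of H2-Oa overlap with those of BC051537 on the opposite strand.

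Of the 10 genes, 9 did not overlap between Ctrl and Model and lay higher in Model, against 21% of all genes tested. The number of calls changed when single libraries were left out. It was 4 without Model 2 (H2-Ab1, H2-Eb1, H2-DMb2 and H2-Ob), 3 without Ctrl 3 (H2-Eb1, H2-DMb2 and H2-Ob) and 1 without Ctrl 2 (H2-Eb1), whereas it was 10 without Model 1 or without Model 3. Calls over all genes in either direction also fell, from 5066 to 3600, 3273 and 3160 without Model 2, Ctrl 3 and Ctrl 2. They were 5033 without Model 1 and 5620 without Model 3. The median log2 fold change of the 10 genes was 0.58 without Model 2, 1.07 without Ctrl 3 and 1.01 without Ctrl 2. Without Model 2 the log2 fold changes of the 3 presenting chains were 0.54 to 0.60 and that of Cd74 was 0.54. Those of H2-DMb1 (0.19), H2-DMa (0.36) and Ciita (0.71) were also lower than with it, while H2-DMb2 (1.40), H2-Oa (1.32) and H2-Ob (1.54) were about as far from 0 as with it. Without Model 1 and Model 3, the libraries with pancreatic transcripts, 7 genes were called from Model 2 as a lone library, whose spread is then assumed to be that of the other groups, and 5213 of 15952 genes were called in either direction.

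The 10 genes followed 2 patterns over the 12 libraries, as the heat map of single libraries shows. In the first pattern Model 2 was the highest library, for H2-Aa, H2-Ab1, H2-Eb1, H2-DMa, H2-DMb1, Cd74 and Ciita. Model_Swim 3 was second for 6 of these 7 genes, and Model 3 was second for Ciita. In the second pattern, H2-DMb2, H2-Oa and H2-Ob, Model 2 did not stand apart from the other Model libraries. H2-Oa and H2-Ob were highest in Ctrl_Swim 4, and H2-DMb2 was highest in Model 1 and second in Ctrl_Swim 4. Over the 12 libraries, Pearson's r between log2 CPM was 0.94 to 0.96 among H2-DMb2, H2-Oa and H2-Ob and 0.87 to 0.99 among H2-Aa, H2-Ab1, H2-Eb1, H2-DMa, H2-DMb1 and Cd74. H2-DMb1 and H2-DMb2 had an r of 0.22. These values are given as a description, since genes share libraries and depth. Ciita had an r of 0.92 to 0.94 with H2-Aa, H2-Ab1, H2-Eb1, H2-DMa and Cd74, but of 0.80 with H2-DMb1. With the second pattern its r was 0.84 for H2-Oa, 0.71 for H2-Ob and 0.69 for H2-DMb2.

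**Figure D2:**
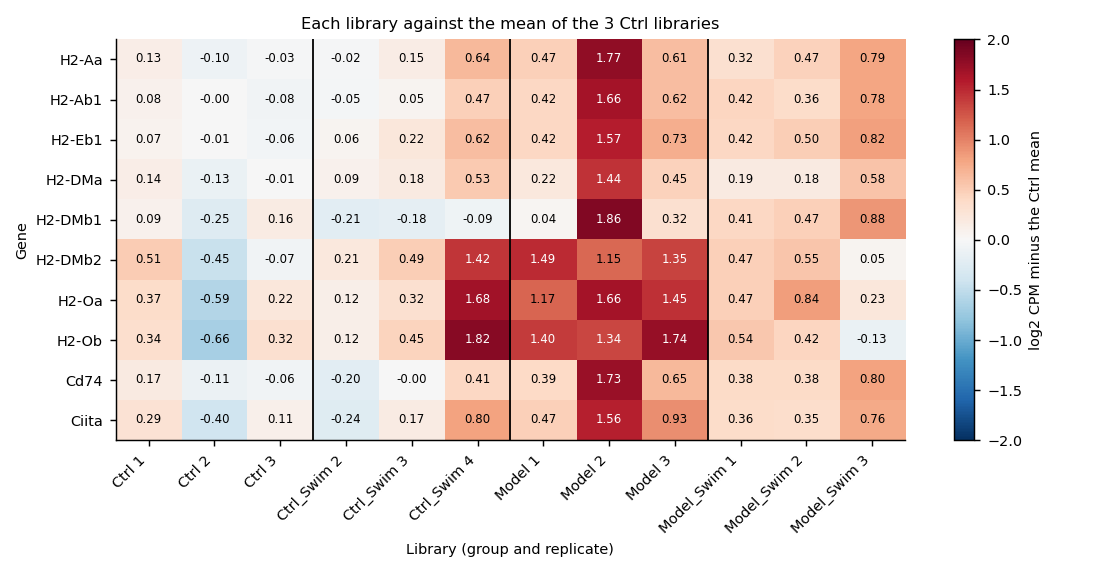
log2 CPM of each class II gene (rows) in each library (columns) minus the mean of the 3 Ctrl libraries; red is higher and blue lower, and the number is the difference. Model 2 is dark for 7 genes, with 1.86 for H2-DMb1, and also for H2-Oa (1.66) and H2-Ob (1.34). Ctrl_Swim 4 is dark only in H2-DMb2 (1.42), H2-Oa (1.68) and H2-Ob (1.82).

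H2-DMb1 and H2-DMb2 are near copies and their reads may be hard to assign. Of all stretches of 100 bases in the GENCODE M21 transcripts, 179 occur in both genes, 13.7% of those of H2-DMb1 and 10.3% of those of H2-DMb2. For stretches of 50 bases the shares are 27.2% and 21.2%, and for 150 bases 5.74% and 4.14%. Reads that fit both genes equally well cannot be given to either. The levels of both are thus uncertain, to an extent that depends on the length compared. Even so the counts of the pair came apart. H2-DMb1 had 1026 reads and H2-DMb2 228 in Model 2, a ratio of 4.50, and 282 and 294 reads in Ctrl_Swim 4, a ratio of 0.959. The highest ratio was 4.96 in Model_Swim 3.

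Marker lists of the cells that could carry class II were set beside these levels, and their part in the results was not tested. The 12 B cell and follicle markers summed to 57.5 to 112 CPM in Ctrl, 206 to 245 CPM in Model and 73.8 to 112 CPM in Model_Swim. In Ctrl_Swim they summed to 75.6, 102 and, in Ctrl_Swim 4, 220 CPM. The libraries high in B cell markers were thus the 3 Model libraries and Ctrl_Swim 4, the same 4 in which H2-DMb2, H2-Oa and H2-Ob were highest. Of the 12 genes 11 were called higher in Model than in Ctrl, among the 4 most abundant Cd79a (log2 fold change 1.12, edgeR adjusted p = 0.00893), a part of the B cell receptor. None of the 12 was at 0 in any library.

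The 12 macrophage and monocyte markers summed to 324 to 350 CPM in Ctrl, 274 to 337 in Ctrl_Swim, 509 to 557 in Model and 452 to 530 in Model_Swim. Both AOM/DSS groups thus lay above both untreated groups, and 10 of the 12 genes were called higher in Model than in Ctrl, Csf1r, C1qa, C1qb and C1qc among them. Model 2 had the highest sum, but by 557 against 550 CPM in Model 3, far less than its lead in Cd74. The 12 dendritic cell markers summed to 40.8 to 50.1 CPM in Ctrl and 86.5 to 90.5 in Model, with 4 called higher, and Ctrl_Swim 4 (104 CPM) and Model_Swim 3 (92.8 CPM) stood above all Model libraries. The 12 T cell markers summed to 32.6 to 38.2 CPM in Ctrl and 67.7 to 100 in Model, with 9 called higher, and to 99.5 in Ctrl_Swim 4. All 6 genes of the list of all leukocytes were called higher in Model, and their sum was 129 to 162 CPM in Ctrl, 308 to 364 in Model and 290 in Ctrl_Swim 4.

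With the mean level of the B cell markers as a covariate, 0 of the 10 class II genes were called in Model against Ctrl, and with that of the macrophage markers also 0. Both covariates themselves differed between the groups, and of all genes tested 29 and 0 were called in those fits, so they cannot separate the cells from the treatment. With the B cell covariate the log2 fold change of H2-Ob was -0.09, and with the macrophage covariate those of 8 of the 10 genes were below 0, from -0.93 for Ciita to -0.01 for H2-Oa.

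**Figure D3:**
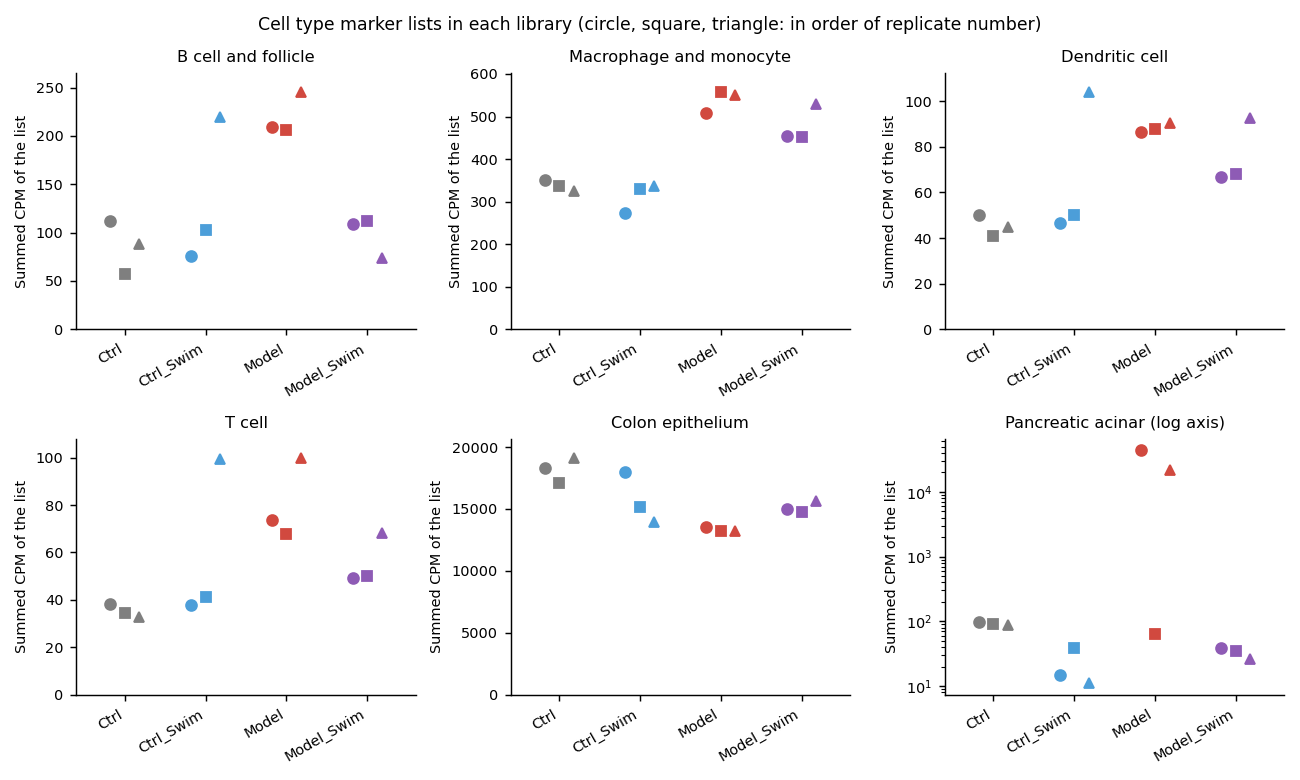
Summed CPM of 6 cell type marker lists of 12 genes each in each library by group (linear axes from 0, except the acinar list on a log axis); symbols as in the plot of levels. B cell, dendritic cell and T cell sums are high in the Model libraries and in Ctrl_Swim 4, dendritic cell sums also in Model_Swim 3 (92.8 CPM), macrophage sums in Model and Model_Swim, and acinar sums in Model 1 and Model 3.

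The comparison of Model_Swim with Model asks what swimming did in mice given AOM and DSS. None of the 10 class II genes was called by edgeR or by DESeq2, and 0.071% of all genes tested were called in either direction by edgeR. All 10 log2 fold changes were below 0, from -0.37 for H2-DMb1 to -1.21 for H2-Ob, with a median of -0.52 beside -0.01 over all genes. At an unadjusted p under 0.05, 3 genes were lower in Model_Swim, against 6.91% of all genes. The same 3, H2-DMb2, H2-Oa and H2-Ob, did not overlap between the groups, against 8.57% of all genes.

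H2-DMb2 measured 7.70, 8.15 and 5.72 CPM in Model_Swim 1 to 3, each below the lowest Model library at 12.4 CPM. Its log2 fold change was -0.97 (SE 0.32, edgeR adjusted p = 0.253). H2-Oa measured 2.97, 3.86 and 2.49 CPM (log2 fold change -0.93, SE 0.41, edgeR adjusted p = 0.358). H2-Ob measured 10.01, 9.24 and 6.25 CPM (log2 fold change -1.21, SE 0.41, edgeR adjusted p = 0.263). For all 3 genes Model_Swim 3 was the lowest of its group. The B cell markers moved with them: all 12 had a log2 fold change below 0, with a median of -1.22, and none was called.

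The other 7 genes overlapped between Model_Swim and Model, and Model_Swim 3 was the highest of its group for each. H2-Aa measured 199, 220 and 276 CPM in Model_Swim, and only Model 2 (542 CPM) lay above this range in Model. H2-Ab1 measured 200, 191 and 256 CPM, H2-Eb1 177, 186 and 233 CPM, and Cd74 578, 577 and 777 CPM. In each of them Model 1 and Model 3 fell within or beside the range of Model_Swim. H2-DMa measured 18.8, 18.6 and 24.6 CPM, H2-DMb1 20.4, 21.3 and 28.4 CPM, and Ciita 19.2, 19.02 and 25.3 CPM. The log2 fold changes of the 7 genes were -0.56 to -0.37, with edgeR adjusted p of 0.464 to 0.712.

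For these 7 genes the differences rested on Model 2. Without it the log2 fold change between Model_Swim and Model was -0.01 for H2-Aa, 0.00 for H2-Ab1, 0.00 for H2-Eb1 and Cd74, -0.02 for H2-DMa, 0.41 for H2-DMb1 and -0.23 for Ciita. For H2-DMb2, H2-Oa and H2-Ob it was -1.07, -0.81 and -1.298 without Model 2, with edgeR adjusted p of 0.347 to 0.542. Without Model 1 and Model 3, in which Model 2 stands alone, 6 genes were called lower in Model_Swim (H2-Aa, H2-Ab1, H2-Eb1, H2-DMa, H2-DMb1 and Cd74), and 569 of 15952 genes were called in either direction.

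**Figure D4:**
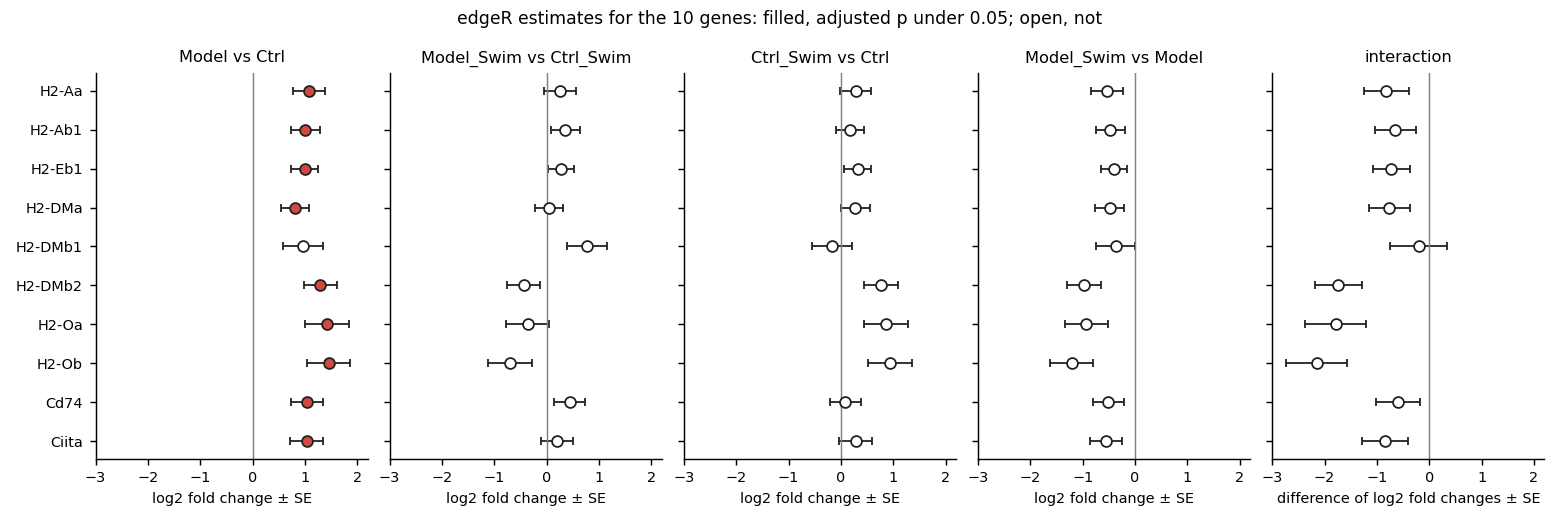
log2 fold change with its SE from edgeR for each class II gene in 4 comparisons, and the interaction, the swimming effect in AOM/DSS mice minus that in untreated mice; filled points passed an adjusted p of 0.05. In Model vs Ctrl 9 of 10 points are filled; in the other 4 panels none is, and the interaction lies farthest below 0 for H2-DMb2, H2-Oa and H2-Ob.

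Swimming in untreated mice, Ctrl_Swim against Ctrl, gave 0 calls among the 10 genes by edgeR and by DESeq2, where edgeR called 0.969% of all genes in either direction. At an unadjusted p under 0.05, 2 were higher, H2-DMb2 and H2-Ob, against 8.14% of all genes. The median log2 fold change was 0.28 beside 0.00 over all genes, from -0.17 for H2-DMb1 to 0.94 for H2-Ob. The 3 genes with the largest values were those of the second pattern. H2-Ob measured 7.45, 9.41 and 24.6 CPM in Ctrl_Swim 2, 3 and 4 (log2 fold change 0.94, SE 0.42, edgeR adjusted p = 0.272). H2-DMb2 measured 6.41, 7.82 and 15.0 CPM (0.76, SE 0.32, edgeR adjusted p = 0.257) and H2-Oa 2.30, 2.66 and 6.998 CPM (0.86, SE 0.42, edgeR adjusted p = 0.313). In each of them Ctrl_Swim 4 lay far above the other 2 libraries of its group. Without Ctrl_Swim 4 the log2 fold changes were 0.24 for H2-Ob, 0.32 for H2-DMb2 and 0.18 for H2-Oa.

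The interaction tests whether swimming acted differently in AOM/DSS and untreated mice. No gene of the 10 was called by edgeR, and 0% of all genes tested were. At an unadjusted p under 0.05 3 were below 0, against 9.45% of all genes. The 3 were H2-DMb2, with a difference of log2 fold changes of -1.74 (SE 0.45, edgeR adjusted p = 0.117), H2-Oa, with -1.79 (SE 0.59, edgeR adjusted p = 0.155), and H2-Ob, with -2.15 (SE 0.59, edgeR adjusted p = 0.123). DESeq2 called H2-DMb2 (adjusted p = 0.00965) and H2-Ob (adjusted p = 0.00778) but not H2-Oa (adjusted p = 0.0538). Over all genes DESeq2 called 777 interactions. Without Ctrl_Swim 4 the 3 differences were -1.305, -1.13 and -1.46 with edgeR adjusted p of 0.243 to 0.317. All 12 B cell markers had an interaction below 0 as well, with a median of -1.92.

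Among swimming mice, Model_Swim against Ctrl_Swim, no class II gene was called by edgeR or by DESeq2, although edgeR called 5.18% of all genes, 3.49% higher. At an unadjusted p under 0.05 there were 0 of the 10, against 12% of all genes higher and 10.4% lower. The log2 fold changes ran from -0.70 for H2-Ob to 0.77 for H2-DMb1, and those of H2-DMb2, H2-Oa and H2-Ob were below 0 while the other 7 were above. H2-DMb1 was the 1 gene without overlap, at 13.3, 13.5 and 14.4 CPM in Ctrl_Swim and 20.4, 21.3 and 28.4 CPM in Model_Swim, against 15.9% of all genes without overlap and higher. Its log2 fold change was 0.77 (SE 0.38, edgeR adjusted p = 0.268). It was called without Model 2 (edgeR adjusted p = 0.0234), with a like log2 fold change of 0.76.

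Averaged over swimming, AOM/DSS was tested with 6 libraries against 6. Of the 10 genes 5 were called higher, where 17% of all genes were: H2-Aa (log2 fold change 0.66, SE 0.21, edgeR adjusted p = 0.0342), H2-Ab1 (0.68, SE 0.19, 0.0204), H2-Eb1 (0.63, SE 0.18, 0.0199), H2-DMb1 (0.87, SE 0.27, 0.0303) and Cd74 (0.74, SE 0.21, 0.0207). None reached 2-fold. These 5 were all of the first pattern, and Ciita fell just short (log2 fold change 0.61, edgeR adjusted p = 0.0506). With the 2-fold cutoff 3.54% of all genes were called higher. All 5 were also called without Model 2, with log2 fold changes of 0.40 to 0.49. Without Model_Swim 3 only H2-Eb1 was called and without Ctrl_Swim 2 none, 2 were called without Ctrl 2 and 3 without Ctrl 1, Ctrl 3 or Ctrl_Swim 3, whereas 9 were called without Ctrl_Swim 4. Over all genes, these fits called from 3986 (without Ctrl 2) to 5172 (without Ctrl_Swim 4) in either direction, beside 5175 with all libraries.

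Ratios between the genes were compared on the deposited FPKM values, which divide by a length per gene. For H2-DMa that length is 6798 bases against 2005 for the longest coding transcript of GENCODE M21, and for H2-DMb2 786 against 1483, so their FPKM cannot be read as levels beside other genes. The ratio of Cd74 to the mean of H2-Aa and H2-Ab1 was 2.21 to 2.41 in Ctrl, 2.21 to 2.35 in Model and 2.23 to 2.32 in Model_Swim, but 2.04 to 2.13 in Ctrl_Swim, below all other libraries. The ratio of H2-Ab1 to H2-Aa was 0.74 to 0.90 over the 12 libraries and that of H2-Eb1 to H2-Ab1 was 0.60 to 0.71. The ratio of H2-DM to H2-DO was the widest, from 2.46 in Ctrl_Swim 4 to 7.90 in Model_Swim 3. In a two-sided exact permutation test within swimming and non-swimming mice, which can reach 0.005, no ratio passed the threshold between AOM/DSS and untreated mice: the log2 differences were 0.07 for Cd74 to H2-A (adjusted p = 0.32 over the 4 ratios), 0.02 for H2-Ab1 to H2-Aa (0.825), -0.04 for H2-Eb1 to H2-Ab1 (0.63) and 0.06 for H2-DM to H2-DO (0.825). Counts per kilobase of annotated transcript, an alternative chosen after the lengths were seen, gave 0.02 for H2-DM to H2-DO (adjusted p = 0.955).

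The genes most like the 10, by Pearson's r over the 12 libraries between log2 CPM and the mean of the 10 genes each centred on its own mean, were H2-Q6 (0.975), H2-Q4 (0.956), H2-Q7 (0.955), Dok3 (0.950), Irf5 (0.949), Nlrc5 (0.946), Mdm4 (0.941), Ndor1 (0.939), Sp110 (0.938) and Tcirg1 (0.938), among 13978 genes with a mean of at least 1 CPM. H2-Q4, H2-Q6 and H2-Q7 are MHC class I genes and near copies of each other, and Nlrc5 encodes the class I coactivator related to CIITA. All 10 were highest in Model 2, as were 7 of the class II genes.

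The rest of the pathway was read from lists of genes by role. Of the 7 promoter factors that recruit CIITA, Rfx5, a subunit of the RFX complex, was higher in Model (20.9 to 22.0 CPM in Ctrl and 26.8 to 31.7 in Model, log2 fold change 0.44, edgeR adjusted p = 0.00687), and Nfyc, a subunit of NF-Y, was lower (47.3 to 51.5 and 32.9 to 44.0 CPM, log2 fold change -0.33, edgeR adjusted p = 0.0270). Of all genes 16.5% were called higher and 16.2% lower. The median of the list was 0.04. Of the 8 genes from interferon-gamma to CIITA, 7 were tested and 2 called, the receptor kinases Jak1 (log2 fold change 0.19, edgeR adjusted p = 0.0164) and Jak2 (0.25, edgeR adjusted p = 0.0381), both higher in Model by less than 1.2-fold. Ifng itself, named here because it alone was not tested, had 0 to 11 reads per library.

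Of the 9 genes of endosomal proteolysis, which make the peptides, 5 were higher in Model and 1 lower. Lgmn, an asparagine-specific protease, measured 95.0 to 99.8 CPM in Ctrl and 129 to 167 in Model (log2 fold change 0.60, edgeR adjusted p = 0.000974), followed by the cathepsins Ctsl (0.47, edgeR adjusted p = 0.00467) and Ctsd (0.25, edgeR adjusted p = 0.0208). Ifi30, which reduces disulfide bonds of antigens, was lower (log2 fold change -0.20, edgeR adjusted p = 0.0148). These changes were smaller than those of the class II genes. In Model_Swim against Ctrl_Swim 6 of the 9 were called higher, where none of the class II genes was. Several of these proteases are abundant in macrophages, whose markers were high in the same groups. Whether macrophage content bears on the protease values was not tested.

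Of the 7 costimulatory and checkpoint ligands of antigen-presenting cells, 6 were higher in Model, and the median of the 7 was 0.87 on the log2 scale. Cd86, a ligand of CD28, measured 2.80 to 3.59 CPM in Ctrl and 7.93 to 9.24 in Model (log2 fold change 1.36, edgeR adjusted p = 0.000964), and Cd274, the PD-L1 gene, 7.69 to 9.98 and 15.3 to 25.9 CPM (1.24, edgeR adjusted p = 0.00224). Icosl and Cd83 were also higher (0.59 and 0.87). Of the 7 receptors on the T cell side, 6 were higher, with a median of 1.73. Cd4, the coreceptor that binds class II, measured 7.64 to 9.70 CPM in Ctrl and 18.1 to 33.7 in Model (1.73, edgeR adjusted p = 0.00124), and Icos (1.90), Ctla4 (2.25) and Pdcd1 (2.39) were the next in order of adjusted p. In Model_Swim against Model none of these 14 genes was called.

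H2-Eb2, a class II-like gene next to H2-Eb1, was higher in Model (2.40 to 4.80 CPM in Ctrl and 7.17 to 9.80 in Model, log2 fold change 1.34, edgeR adjusted p = 0.0207). Of 6 other genes inside the class II region, 2 were higher, the peptide transporter genes Tap1 (log2 fold change 0.75, edgeR adjusted p = 0.0338) and Tap2 (0.43, edgeR adjusted p = 0.0435), which serve class I. The other 4 were not called.

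**Figure D5:**
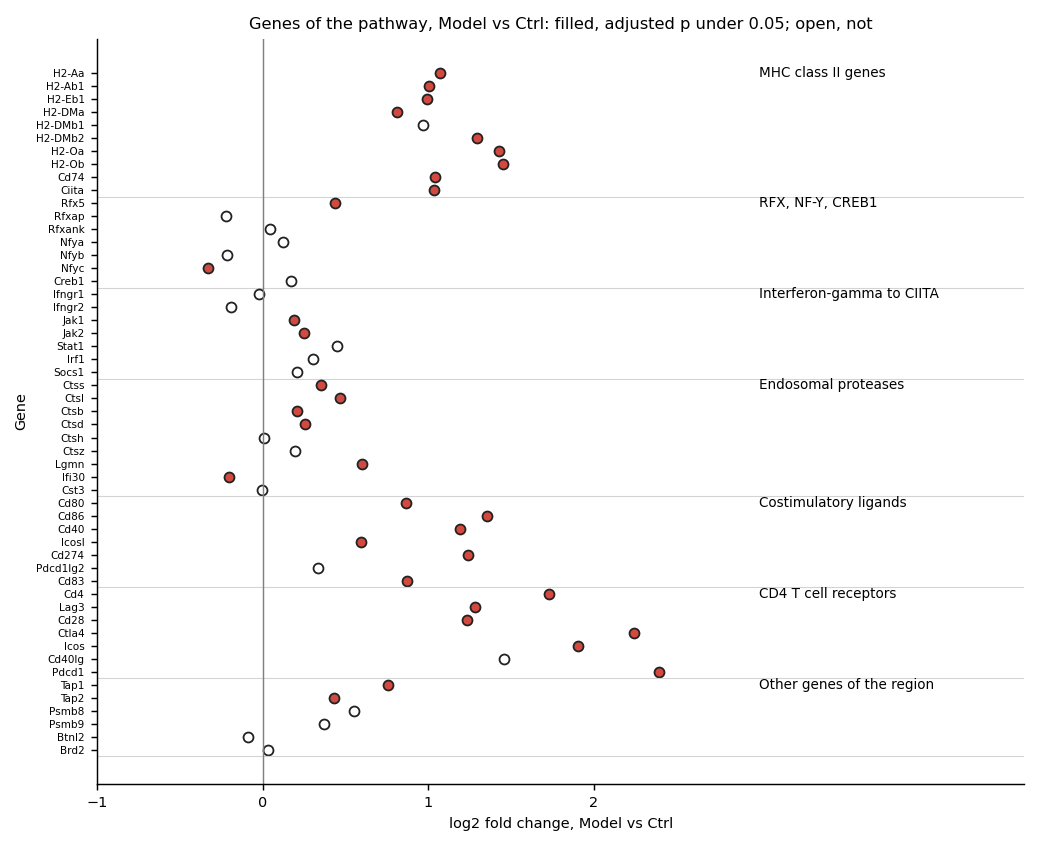
log2 fold change of Model vs Ctrl (x axis) for the 10 class II genes and for the tested genes of 6 lists of the pathway and the region (y axis, one gene a row); filled points passed an adjusted p of 0.05 in edgeR. The class II genes lie between 0.81 and 1.45, the T cell receptors reach 2.39, and the promoter factors lie on both sides of 0.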

How the data were processed

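Colorectal RNA of 12 mice was sequenced by the authors with a stranded mRNA kit on an Illumina HiSeq X instrument. Per the paper's methods, reads were trimmed with Trimmomatic and mapped to GRCm38.p6 with HISAT2, the deposited raw counts per gene came from HTSeq-count, and the deposited FPKM values from Cufflinks, which were not pooled over replicates. Tool versions and the annotation release are not given in the sources used here. The labels name another RNA extraction kit than the methods.

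All 12 libraries entered 1 edgeR 4.0.16 fit of the 4 groups (R 4.3.3, TMM scaling, filterByExpr with a minimum count of 10, quasi-likelihood test, Benjamini-Hochberg over 15484 genes). log2 CPM used a prior count of 2. The study used DESeq2; it was run as an alternative (version 1.42.0), as was limma 3.58.1 on log2(FPKM + 1). The fits were tested on simulated counts. The 10 genes, all named, and the lists were chosen with earlier results of these data known. Of each pathway list at most 4 genes called in Model vs Ctrl were named, by adjusted p, and of each marker list at most the 4 most abundant. The genes most like the 10 leave out gene models, pseudogenes and antigen receptor segments. Promoter windows came from RefSeq (GRCm38.p6). Counts of 25 reads and more stand behind every level of the 10 genes, and the number of libraries limits the precision.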

Additional observations from a re-analysis of the deposited data

How the results depend on the processing

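DESeq2 size factors, DESeq2 itself, no filter and limma on FPKM left 8 to 10 of the 10 genes called in Model vs Ctrl. Fitting only the groups compared left 5, and the B cell and macrophage covariates left 0. With the acinar covariate 8 were called, and 3009 of all genes. The median log2 fold change of the 10 genes was then 1.63 in Model vs Ctrl and -1.48 in Model_Swim vs Model, beside 1.04 and -0.52 without it. Acinar markers were high only in Model 1 and Model 3, so this covariate sets them apart from Model 2. Leaving out Model 1 and Model 3 gave like medians, 1.59 and -1.10. Pancreatic content and the high values of Model 2 therefore cannot be told apart in this fit. For AOM/DSS averaged over swimming, 0 genes passed with 2-fold and 0 with the B cell or the macrophage covariate (2870 and 0 of all genes). With the acinar covariate 7 were called (4289 of all genes), and with limma on log2(FPKM + 1) without a filter 3 (4628 of all genes). Without Model 2 and Ctrl_Swim 4, an alternative chosen after seeing the data, 9 were called (4664 of all genes). DESeq2 called 2 interactions, and 777 over all genes. Without Model 1 and Model 3, 6 genes were called in Model_Swim vs Model, 6 interactions and 1 gene in Model_Swim vs Ctrl_Swim (of all 15952 genes 569, 917 and 2153), where 1 was also called with only the groups compared and 1 without Model 2 and Ctrl_Swim 4. Leaving out single libraries gave 1 to 10 calls in Model vs Ctrl, 0 to 9 for AOM/DSS averaged over swimming, 0 to 1 in Model_Swim vs Ctrl_Swim and 0 in the other comparisons. Over all genes the same fits called 3160 to 5620 in Model vs Ctrl and 3986 to 5775 for AOM/DSS averaged over swimming. The cause of these changes in calls was not tested, beyond the smaller number of libraries.

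With a replicate block by the number in the titles, 8 genes were called in Model vs Ctrl and 8 for AOM/DSS averaged over swimming. Over all 15484 genes tested, 4321 and 4379 were called in these fits. The titles give no shared litter or day. Deviations of same-numbered libraries from their group means correlated from -0.261 to 0.564 over 15 pairs. For libraries of different number and group the range was -0.557 to 0.451 over 39 pairs. Whether same-numbered samples share more than a number cannot be told from these ranges.

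Signs turned in single genes. In Model vs Ctrl the macrophage covariate gave H2-Aa -0.60, H2-Ab1 -0.47, H2-Eb1 -0.46, H2-DMa -0.60, H2-DMb1 -0.50, H2-Oa -0.0056, Cd74 -0.65 and Ciita -0.93 on the log2 scale, and the B cell covariate gave H2-Ob -0.094. For AOM/DSS averaged over swimming the macrophage covariate gave H2-Aa -0.93, H2-Ab1 -0.74, H2-Eb1 -0.76, H2-DMb1 -0.54 and Cd74 -0.87, and in Model_Swim vs Ctrl_Swim H2-DMb1 -0.57. In Model_Swim vs Model it gave H2-DMb1 0.029, and the B cell covariate gave H2-Oa 0.25, H2-Ob 0.11 and Ciita 0.013, and an interaction for H2-Oa of 0.084. In Model_Swim vs Model, leaving out single libraries gave H2-Ab1 from -0.70 to 0.00022 and H2-DMb1 from -0.69 to 0.41, both highest without Model 2, and leaving out Model 2 and Ctrl_Swim 4 gave H2-Ab1 0.012, H2-Eb1 0.0079, H2-DMb1 0.42 and Cd74 0.0082. None of these values was called. The ratio of H2-DM to H2-DO ran from -0.089 (without Ctrl_Swim 4) to 0.16 over single libraries left out, and that of H2-Ab1 to H2-Aa from -0.0057 (without Model_Swim 1) to 0.048, with -0.0084 without Model 1 and Model 3.

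Of all genes, 5066 were called in Model vs Ctrl by edgeR and 5548 by DESeq2, but 3337 with only the groups compared. In Model_Swim vs Model edgeR called 11 and DESeq2 361, in Ctrl_Swim vs Ctrl 150 and 658, in Model_Swim vs Ctrl_Swim 802 and 1562, and for the interaction 0 and 777. limma on log2(FPKM + 0.1) placed the median of all genes at 0.11 in Ctrl_Swim vs Ctrl and at -0.11 for the interaction, beside 0.00 in edgeR.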

Other observations

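3 further marker lists cover cells that can carry class II or that come from B cells. Of the 12 colon epithelium genes, 9 were lower in Model than in Ctrl, with Krt8 (log2 fold change -0.67, edgeR adjusted p = 0.00147) the most abundant, and their sum was 17077 to 19153 CPM in Ctrl, 13176 to 13556 in Model and 14753 to 15629 in Model_Swim. In Ctrl_Swim the sum was lowest, 13940 CPM, in Ctrl_Swim 4, the library in which H2-Oa and H2-Ob were highest. Of the 8 plasma cell genes 1 was higher in Model, Pou2af1 (log2 fold change 0.73, edgeR adjusted p = 0.0196), which B cells also express. Jchain, the joining chain of secreted antibodies, was not called (0.11). In this comparison 16.5% of all genes were called higher and 16.2% lower. The plasma cell sum was 1103 to 1593 CPM in Ctrl and 1303 to 1750 in Model, so it did not separate the groups as the B cell sum did. Of the 7 genes of group 3 innate lymphoid cells 4 could be tested and 2 were higher in Model, Il1r1 (log2 fold change 0.43, edgeR adjusted p = 0.0117) and Il7r (1.14, edgeR adjusted p = 0.0251), both expressed by other cells as well. Their sum was 176 to 194 CPM in Ctrl and 147 to 225 in Model.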
